A study of Mus musculus with 6 samples.

Results

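The proteins of the Bcl2 family decide at the outer mitochondrial membrane whether a cell releases cytochrome c and enters apoptosis. The pro-survival proteins hold the effectors Bax and Bak1 in check, and the BH3-only proteins, switched on by stress, damage or loss of growth factors, neutralize the pro-survival proteins or activate the effectors directly. In satellite cells (SCs), the stem cells of adult skeletal muscle, a fraction of the dividing progeny is known to die when myoblasts leave the cell cycle to differentiate. The 10 family members described here were taken by gene symbol from the 35976 genes of the quantified mouse transcriptome. The pro-survival group held 4 genes, Bcl2, Bcl2l1, Bcl2l2 and Mcl1. The pro-death group held 6, the effectors Bax and Bak1 and the BH3-only genes Bid, Bcl2l11, Bbc3 and Pmaip1. All 10 passed the filter on low counts, among 17348 genes tested, with expected counts per library between 228 (Bbc3) and 5889 (Mcl1).

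RNA-seq was carried out on SCs of 3 NF-YAcKO and 3 NF-YAfl/fl samples. NF-YAcKO mice carried the tamoxifen-inducible Pax7-CreERT2 together with Nfya alleles flanked by LoxP sites in introns 2 and 8. The NF-YAfl/fl controls carried the same floxed alleles without Cre, and mice of both genotypes received tamoxifen, so that they differ in Cre as well as in the deletion. The Pax7 promoter confines Cre to Pax7-expressing cells. The labels give an age of 5 to 7 weeks and tamoxifen at 20 mg/ml, while the methods of the study give male mice of 6 to 8 weeks, 5 daily injections of 0.1 mg per g and muscle harvest 7 days after the last. SCs of hindlimb muscle were enriched by magnetic depletion of cells bearing CD31, CD45, CD11b or Sca1 and kept for 4 days in growth medium. The labels number the samples but do not say that each came from a separate mouse, and the p-values then measure the spread between these libraries, part of which may be technical. The question asked of the family was whether loss of NF-YA, the DNA-binding regulatory subunit of the trimeric transcription factor NF-Y, went with a shift between its pro-survival and pro-death transcripts.

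Total expected counts per library ranged from 26936230 to 41118984. The RSEM entry for the deleted Nfya transcript drew between 22.3% and 34.2% of all expected counts assigned to Nfya in NF-YAcKO and was listed at 0 in all 3 NF-YAfl/fl libraries, while the other Nfya transcripts were still at 17.8 to 21.0 CPM (TMM-normalized expected counts, scaled to library size) in NF-YAcKO, against 23.4 to 36.9 CPM in NF-YAfl/fl. Xist lay at 836 to 852 CPM in NF-YAcKO and at most at 0.475 CPM in NF-YAfl/fl. The Y-linked Ddx3y lay at 80.9 to 88.6 CPM in NF-YAfl/fl and at most at 0.0957 CPM in NF-YAcKO. Such values mark female cells in NF-YAcKO and male cells in NF-YAfl/fl, whereas the methods give male mice. Genotype and sex therefore cannot be told apart in any comparison below, autosomal genes included. The biological coefficient of variation was 0.105 in NF-YAcKO and 0.310 in NF-YAfl/fl. The SC and myoblast genes Pax7 (mean 171 CPM in NF-YAcKO and 88.7 in NF-YAfl/fl) and Myod1 (567 and 601 CPM) were present in both genotypes. In NF-YAfl/fl replicates 1, 2 and 3 Myod1 was at 361, 295 and 1146 CPM. The summed myoblast markers were at 2803, 2223 and 3878 CPM in these libraries. The summed fibro-adipogenic markers were at 1091, 1612 and 386 CPM. Of the 7 myoblast markers, Pax7 and Vcam1 were higher in NF-YAcKO and Des (log2 fold change -2.09), Cdh15 (-1.78) and Itga7 (-1.25) lower at a false discovery rate (FDR, edgeR quasi-likelihood test with Benjamini-Hochberg adjustment) under 0.05. The summed level of 7 macrophage markers was 137 to 271 CPM in NF-YAcKO and 5.15 to 11.8 CPM in NF-YAfl/fl, and all 7 were higher at that threshold. The 6 differentiated-muscle markers analysed here summed to 39.6 to 109 CPM in NF-YAcKO and 7453 to 9615 CPM in NF-YAfl/fl, and all 6 were lower. All 4 Schwann markers, 1 of 4 endothelial and 1 of 5 fibro-adipogenic markers were higher, and 2 of 4 pericyte markers were lower. The part of these differences in the values of the Bcl2 family was not tested. In bulk RNA, fewer cells of a type and less RNA per cell cannot be told apart.

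NF-Y binds the pentanucleotide CCAAT, and stretches of promoter around this motif are shown because they mark which family promoters hold the letters that NF-Y recognizes. RefSeq promoter windows on GRCm38.p6, from 250 bases before to 50 bases after an annotated start site, were matched for 9 members in 14 windows, with none for Pmaip1. The motif was searched as CCAAT on either strand, the complement reading ATTGG. It was found in 3 of the 14 windows, the 2 of Bcl2l11 and that of Bbc3 printed below, and not in the windows of the other 7 members. The further Bbc3 windows, chr7:16309333-16309632 and chr7:16310011-16310310, did not hold the motif. Of all 32851 windows, 37.4% held it, and of the 12466 tested genes with a window, 42.3%. One stretch per window is given on the strand of the gene, both genes lying on the plus strand, with the motif in capitals. The 2 windows of Bcl2l11 lie at alternative start sites.
Bcl2l11, chr2:128125970-128125996, motif from base -57 of the start site: agcccgcggtgATTGGgcgcgggggcg
Bcl2l11, second start site, chr2:128127490-128127516, motif from base -74: ctgcgcgcgggCCAATgggggagcact
Bbc3, chr7:16310320-16310346, motif from base -100: aacagccggttATTGGccccgcgcgcg

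In NF-YAcKO cells the pro-survival gene Bcl2l2 and the BH3-only gene Pmaip1 were lower and the BH3-only gene Bid was higher than in NF-YAfl/fl, at an FDR under 0.05. Bcl2l2 stood at 59.4% and Pmaip1 at 26.5% of the control level, and Bid at 1.57 times it. These changes ran in both directions within the pro-death group. At this threshold 1 of the 10 members was thus higher and 2 were lower, beside 19.7% and 18.9% of all tested genes. By edgeR 0 of the 10 passed the stricter rule of the study, an FDR under 0.01 with a log2 fold change beyond 1 in either direction, which 4.65% of tested genes passed upward and 7.67% downward. At an unadjusted p under 0.05 the members numbered 2 higher and 3 lower, beside 24.6% and 24.1% of all tested genes. Under DESeq2, 1 member, Pmaip1, passed the stricter rule downward (FDR 1.85e-05), beside 10.4% of all genes, and 0 passed it upward, beside 5.68%. Pmaip1 also passed it by limma on log2(TPM + 0.1), with no filter on low counts and without NF-YAfl/fl replicate 2. In those settings 6.15%, 5.27% and 7.43% of all tested genes passed it downward. In TMM-normalized CPM, no overlap between NF-YAcKO and NF-YAfl/fl libraries was found for 2 members that were higher (Bak1 and Bid, 29.1% of all genes) and for 4 that were lower (Bcl2l1, Bcl2l2, Bcl2l11 and Pmaip1, 26.2% of all genes). In TPM, a scale added after the data were seen, 1 higher (Bid, beside 18.8%) and 3 lower members (Bcl2l1, Bcl2l2 and Pmaip1, beside 25.2%) did not overlap. Pro-survival members had a median log2 fold change of -0.09 and pro-death members one of 0.10, beside -0.02 over all tested genes.

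**Figure D1:**
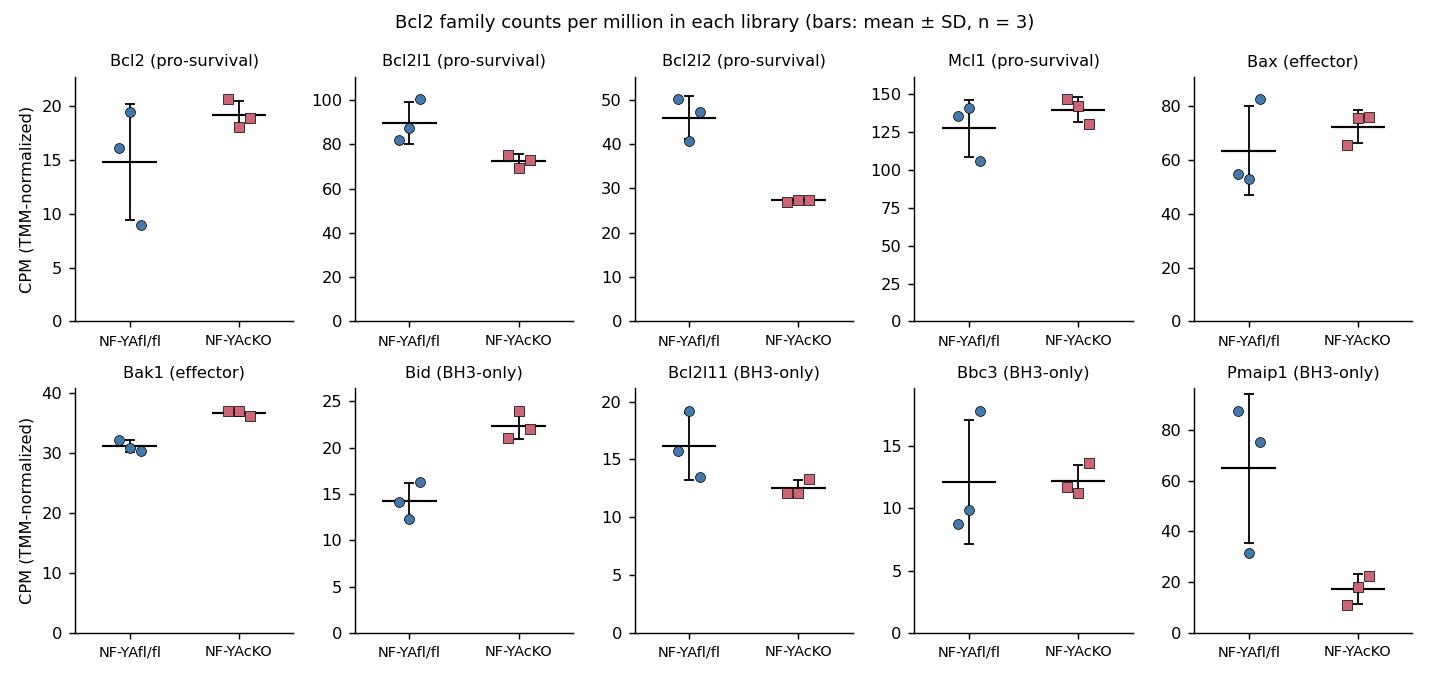
TMM-normalized CPM (linear axes from 0) of the 10 members in the 3 NF-YAfl/fl (circles) and 3 NF-YAcKO (squares) libraries, with bars for mean ± SD. Bcl2l2 and Pmaip1 lie lower and Bid higher in every NF-YAcKO library, while Bcl2, Mcl1, Bax and Bbc3 overlap between the genotypes.

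Among the pro-survival genes, Bcl2l2 encodes Bcl-w, a guardian of long-lived and post-mitotic cells, and lies on chromosome 14 (GRCm38, 54883366 to 54890858). Its level was 27.0, 27.4 and 27.4 CPM in the NF-YAcKO libraries and 50.0, 40.6 and 47.2 CPM in the NF-YAfl/fl libraries. The 3 mutant libraries were nearly the same and all lay below the lowest control. The mutant level corresponds to a log2 fold change of -0.75 with an SE of 0.11 (95% interval -1.01 to -0.50) and an edgeR FDR of 0.00261. With each library left out in turn it remained between -0.84 and -0.69. An annotated gene on the same strand, Gm20521, overlaps Bcl2l2 and has no row of its own in these tables, so reads from shared exons could enter the Bcl2l2 count.

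Bcl2l1, on chromosome 2 (152758732 to 152833803), gives the long form Bcl-xL and, by splicing, the pro-apoptotic short form Bcl-xS. It measured 75.4, 69.2 and 73.2 CPM in NF-YAcKO and 81.8, 87.4 and 100.4 CPM in NF-YAfl/fl. All mutant libraries were below all control libraries, but the gap was narrow. This gave a log2 fold change of -0.31 (SE 0.10, 95% interval -0.55 to -0.06, edgeR FDR 0.0533), which misses the threshold. The FDR lay on either side of 0.05 across the 14 alternatives, from 0.0226 to 0.135, and under it in 6, including those without NF-YAfl/fl replicate 1 (0.0468) and without NF-YAfl/fl replicate 3 (0.0412).

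Mcl1, a short-lived pro-survival protein that is turned over through ubiquitination, lies on chromosome 3 (95656944 to 95663179). It had the highest pro-survival counts, 146, 142 and 130 CPM in NF-YAcKO and 135, 141 and 106 CPM in NF-YAfl/fl. The genotypes overlapped, and NF-YAfl/fl replicate 3 was the lowest library. Its log2 fold change of 0.13 (95% interval -0.17 to 0.44) had an edgeR FDR of 0.441. Without NF-YAfl/fl replicate 3 it was 0.01, without NF-YAcKO replicate 1 or 2 it was 0.07 or 0.08, and without NF-YAfl/fl replicate 2 it was 0.20. Bcl2 itself, the founding pro-survival gene, on chromosome 1 (106538176 to 106714290), was at 20.6, 18.0 and 18.9 CPM in NF-YAcKO and at 16.1, 19.4 and 8.92 CPM in NF-YAfl/fl. NF-YAfl/fl replicate 3 again stood lowest, and the other controls lay near the mutant libraries. It had a log2 fold change (95% interval -0.27 to 1.01, edgeR FDR 0.311) of 0.37, which was 0.10 without NF-YAfl/fl replicate 3 and 0.61 without NF-YAfl/fl replicate 2. Gm37053 overlaps Bcl2 on the same strand and was quantified separately, with 466 counts summed over the libraries. The antisense gene D630008O14Rik overlaps Bcl2 too and was not quantified separately.

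The effectors Bax and Bak1 form the pores through which cytochrome c leaves the mitochondrion. Bax, on chromosome 7 (45461695 to 45466903), was at 65.5, 75.7 and 76.1 CPM in NF-YAcKO and at 54.7, 53.1 and 82.6 CPM in NF-YAfl/fl. Here NF-YAfl/fl replicate 3 was the highest of all libraries, and the other controls lay below every mutant. Over all libraries its log2 fold change was 0.19 (SE 0.18, 95% interval -0.25 to 0.63, edgeR FDR 0.442). Without NF-YAfl/fl replicate 3 it was 0.42 with an FDR of 0.00896, and without NF-YAfl/fl replicate 1 or 2, or NF-YAcKO replicate 2, it was 0.09, 0.07 or 0.12. Bax too is overlapped by an annotated gene on the same strand, Gm45808, that was not quantified separately. Reads from shared exons could therefore enter the Bax count. Bak1, on chromosome 17 (27019812 to 27028627), was at 37.1, 37.1 and 36.1 CPM in NF-YAcKO and at 32.3, 30.9 and 30.4 CPM in NF-YAfl/fl. Its spread on this scale was small in both genotypes and they did not overlap, whereas in TPM they did (19.7 to 23.0 against 15.5 to 23.5). The log2 fold change of 0.24 (SE 0.09, 95% interval 0.03 to 0.44) had an edgeR FDR of 0.0672 and stayed above 0.05 in all 14 alternatives. Ggnbp1 overlaps Bak1 on the opposite strand and had 163 counts summed over the libraries.

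Among the BH3-only genes, Bid couples the death receptors to mitochondria, since its protein is cut by caspase-8 into an active fragment. It lies on chromosome 6 (120893119 to 120917062). Bid was at 21.1, 24.0 and 22.0 CPM in NF-YAcKO and at 14.1, 12.3 and 16.3 CPM in NF-YAfl/fl. All mutant libraries exceeded the highest control. This gave a log2 fold change of 0.65 (SE 0.14, 95% interval 0.32 to 0.98, edgeR FDR 0.0107), and it passed the 0.05 threshold in 13 of 14 alternatives, the exception being the one without NF-YAcKO replicate 2, with 0.56 and an FDR of 0.0637. Bid overlaps Bcl2l13 on the opposite strand, and the strand setting of the counting is not given in the sources used here. Bcl2l13 itself had a log2 fold change of -0.11 (FDR 0.491).

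Pmaip1, on chromosome 18, encodes Noxa, a target of p53 whose protein neutralizes Mcl1. Its level was 10.8, 18.1 and 22.5 CPM in NF-YAcKO and 87.6, 31.5 and 75.4 CPM in NF-YAfl/fl. Relative to its mean it varied more among the NF-YAcKO libraries than any other member, yet the highest mutant library was below the lowest control. The log2 fold change of -1.92 (SE 0.42, 95% interval -2.92 to -0.91, edgeR FDR 0.0125) was the largest of the 10 members. In every alternative it was lower by more than 1 on the log2 scale with an FDR under 0.05. With each library left out in turn it ranged from -2.26 without NF-YAfl/fl replicate 2 (FDR 0.00335) to -1.65 without NF-YAfl/fl replicate 1 (FDR 0.0439).

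Bcl2l11, which encodes Bim, an activator of Bax and Bak1 induced by FoxO factors when growth factors are withdrawn, lies on chromosome 2 (128126038 to 128162547). It was at 12.1, 12.1 and 13.3 CPM in NF-YAcKO and 15.7, 19.2 and 13.4 CPM in NF-YAfl/fl. The lowest control and the highest mutant library nearly touched. The log2 fold change was -0.37 (95% interval -0.75 to 0.01, edgeR FDR 0.110), and without NF-YAfl/fl replicate 3 it was -0.49 with an FDR of 0.0183, but without NF-YAfl/fl replicate 2 it was -0.23 with an FDR of 0.199. Bbc3, which encodes the p53 target Puma, lies on chromosome 7 (16308398 to 16318334). It was at 11.7, 11.2 and 13.7 CPM in NF-YAcKO and at 8.72, 9.84 and 17.8 CPM in NF-YAfl/fl. The controls lay on both sides of the mutants, with NF-YAfl/fl replicate 3 the highest. The log2 fold change was 0.01, with a 95% interval of -0.65 to 0.67 (edgeR FDR 0.983), and its sign changed in 7 of 14 alternatives.

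**Figure D2:**
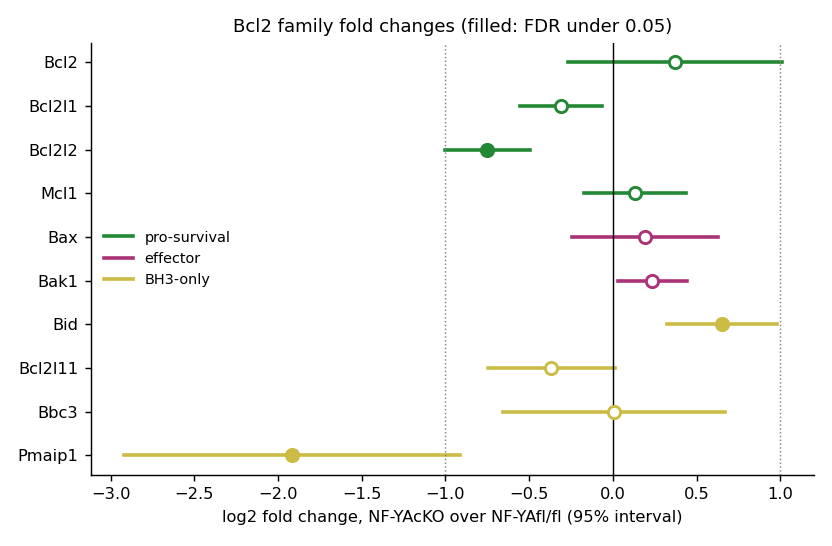
Log2 fold change of each member (NF-YAcKO over NF-YAfl/fl, 3 libraries each) with its 95% interval from edgeR, coloured by role and filled where the FDR was under 0.05, with dotted lines at -1 and 1. Bcl2l2, Bid and Pmaip1 are filled, and Pmaip1, at -1.92, is the only estimate beyond 1.

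To compare levels between genes, the TPM values of RSEM, which are scaled to transcript length, were used. In NF-YAcKO, Bax was the most abundant transcript of the family by length-scaled level, with 109 ± 7.34 TPM (SD, n = 3), followed by Mcl1 with 44.9 ± 4.60 TPM, Bcl2l1 with 31.8 ± 3.87 TPM, Bak1 with 21.5 ± 1.66 TPM and Bid with 13.7 ± 0.275 TPM. These 5 were each apart from the next in all 3 libraries. Bbc3 (8.43 ± 1.22 TPM), Bcl2l2 (7.70 ± 0.811 TPM) and Pmaip1 (7.29 ± 2.50 TPM) overlapped one another, as did Bcl2 (3.17 ± 0.496 TPM) and Bcl2l11 (2.67 ± 0.344 TPM) at the bottom.

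In NF-YAfl/fl, Bax was again first, with 99.2 ± 10.7 TPM (SD, n = 3). Mcl1 (44.6 ± 14.2 TPM), Bcl2l1 (40.5 ± 4.91 TPM) and Pmaip1 (28.3 ± 11.1 TPM) each overlapped the next in the order, which after Pmaip1 was Bak1 (19.6 ± 3.98 TPM). The ranks of these neighbours are not resolved, though Mcl1 and Bcl2l1 each lay above Bak1 without overlap. Bcl2l2 (13.9 ± 1.67 TPM) lay apart from its neighbours Bak1 and Bid, and Bid (9.19 ± 0.495 TPM) overlapped Bbc3 (8.42 ± 2.11 TPM). Bcl2l11 (3.77 ± 1.30 TPM) and Bcl2 (2.69 ± 1.35 TPM) closed the order and overlapped. Pmaip1 took rank 4 by mean TPM in NF-YAfl/fl and rank 8 in NF-YAcKO.

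The summed level of the pro-survival members was 97.2, 78.4 and 87.1 TPM in NF-YAcKO and 100.7, 123 and 81.6 TPM in NF-YAfl/fl. That of the pro-death members was 159, 153 and 175 TPM in NF-YAcKO and 165, 167 and 173 TPM in NF-YAfl/fl. Both sums overlapped between the genotypes. The ratio of the pro-survival to the pro-death sum was 0.611, 0.511 and 0.496 in NF-YAcKO and 0.609, 0.737 and 0.471 in NF-YAfl/fl, with means of 0.539 ± 0.0626 and 0.606 ± 0.133 (SD, n = 3), and NF-YAfl/fl held both the highest and the lowest value.

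TPM is a share of all transcripts, and a single abundant RNA took 9.38% to 15.0% of it, so the sums were also taken as TMM-normalized CPM per kb of effective length. On that scale the pro-survival sum was 85.8, 81.4 and 79.4 in NF-YAcKO and 90.3, 90.3 and 87.3 in NF-YAfl/fl, and the genotypes no longer overlapped, while the pro-death sums still did. Bax made up 66.5% to 67.7% of the pro-death TPM in NF-YAcKO and 52.8% to 62.2% in NF-YAfl/fl, beside the lower Pmaip1. Mcl1 and Bcl2l1 together made up 87.2% to 87.9% of the pro-survival TPM in NF-YAcKO and 82.2% to 84.8% in NF-YAfl/fl, beside the lower Bcl2l2. These shares follow from the members' values above and are given as a description.

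**Figure D3:**
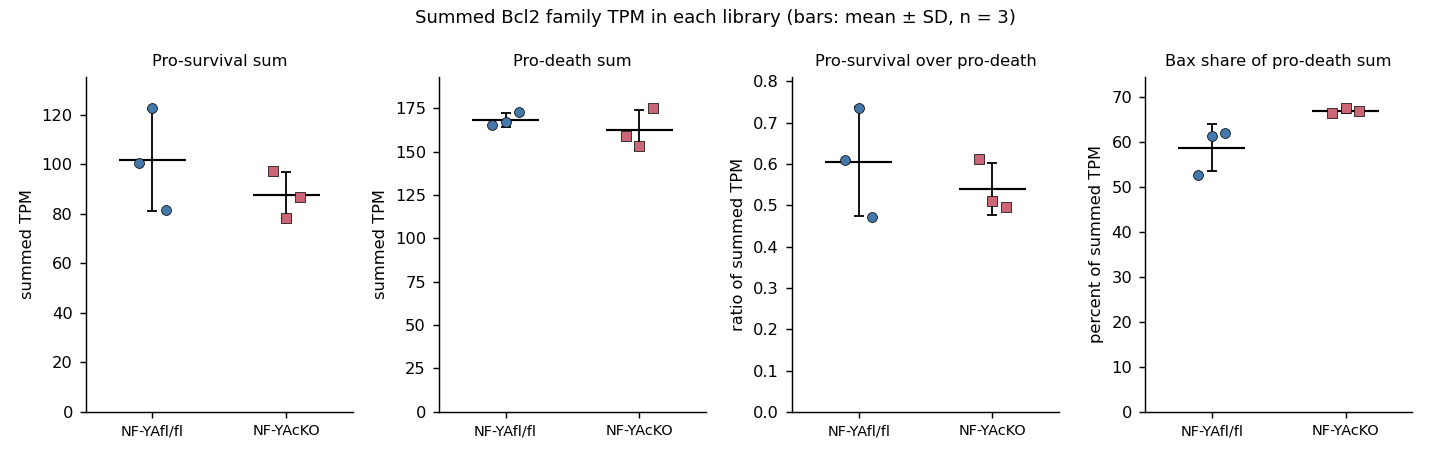
Summed TPM of the 4 pro-survival and 6 pro-death members, their ratio, and the share of Bax in the pro-death sum (percent), in each NF-YAfl/fl (circles) and NF-YAcKO (squares) library, with bars for mean ± SD. The sums and their ratio overlap between the genotypes, and the share of Bax is above 66% in every NF-YAcKO library and below 63% in every NF-YAfl/fl library.

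The deposited tables also divide each gene among its RefSeq transcripts, of which the 10 members have 44. A transcript was compared where it held at least 5% of its gene in either genotype, which gave 23 transcripts of 9 genes. In 6 of them NF-YAcKO and NF-YAfl/fl did not overlap, 4 with a higher and 2 with a lower share in NF-YAcKO. Of the 35520 transcripts of all tested genes chosen by the same rule, 9.7% had a higher and 10.7% a lower share without overlap. Each of these 6 had p = 0.1 in an exact two-sided permutation test, the smallest that 3 against 3 libraries allow, and an adjusted p of 0.383 over the 23, so none passed a threshold of 0.05.

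For Bcl2l1, the transcript NM_009743.5 held 26.0%, 17.0% and 17.2% of the gene in NF-YAcKO and 10.4%, 9.85% and 8.75% in NF-YAfl/fl. The share was higher in every mutant library although the gene as a whole was not. In TPM this transcript was at 9.11, 4.67 and 5.64 in NF-YAcKO and at 3.85, 4.54 and 3.36 in NF-YAfl/fl. Its first exon lies at chromosome 2, 152831603 to 152831728 (GRCm38, minus strand), and its start codon in the second exon (152829427 to 152830102). The more abundant transcript NM_001289716.1 uses another first exon (152830386 to 152830666) and the same second exon and start codon, so these transcripts differ in their noncoding first exon and not in where translation starts. NM_001289716.1 held 39.5%, 36.9% and 37.3% in NF-YAcKO and 35.4%, 33.9% and 33.2% in NF-YAfl/fl. The noncoding model XR_374396.3 was the one without overlap whose share was lower, with 2.29% to 2.97% in NF-YAcKO and 3.99% to 9.90% in NF-YAfl/fl. The remaining compared transcript, XM_011239260.2, overlapped, with 20.0%, 33.3% and 33.5% in NF-YAcKO and 40.1%, 31.5% and 43.8% in NF-YAfl/fl. Its share was lowest in NF-YAcKO replicate 1, where that of NM_009743.5 was highest.

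For Bbc3, the predicted transcript XM_006539582.2 held 43.9%, 51.1% and 44.6% of the gene in NF-YAcKO and 31.4%, 18.7% and 12.9% in NF-YAfl/fl. Its level was 3.80, 3.64 and 4.25 TPM in NF-YAcKO against 1.95, 1.62 and 1.34 TPM in NF-YAfl/fl, while the gene total overlapped between the genotypes. XM_006539583.3 held 15.2%, 14.1% and 14.1% in NF-YAcKO and 19.5%, 33.8% and 22.3% in NF-YAfl/fl. The remaining transcript without overlap was NM_008562.3 of Mcl1, which made up 99.7% of the gene in NF-YAcKO and 99.2% in NF-YAfl/fl by mean. The transcripts of 1 gene share most of their exons, and their separation rests on RSEM's estimate, whose error for a library is not in these tables.

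**Figure D4:**
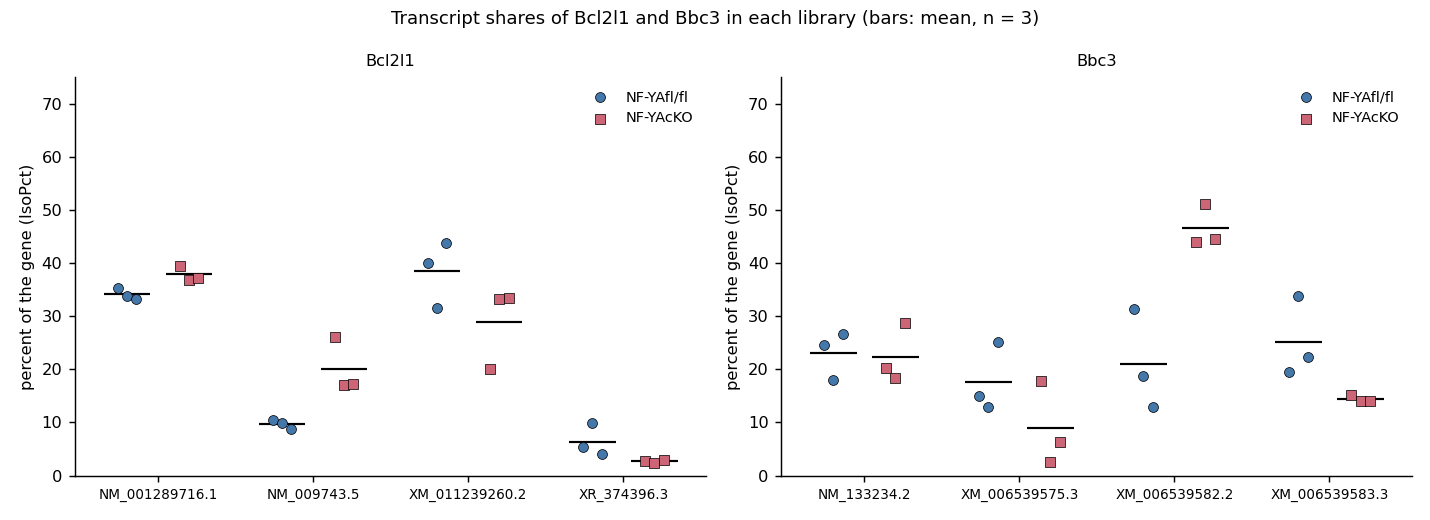
Percent of the gene assigned to each compared transcript of Bcl2l1 and Bbc3 in the 3 NF-YAfl/fl (circles) and 3 NF-YAcKO (squares) libraries, with bars for the mean. NM_009743.5 and XM_006539582.2 are higher in every NF-YAcKO library than in any NF-YAfl/fl library, at p = 0.1 by exact permutation for each.

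The surrounding apoptosis genes were taken from 7 lists of 55 genes, of which 50 were tested. Of these, 14 (28.0%) were higher and 6 (12.0%) were lower in NF-YAcKO at an edgeR FDR under 0.05, beside 19.7% and 18.9% of all tested genes. These shares of all tested genes are also the background for the counts of each list below. Their median log2 fold change was 0.20, against -0.02 for all genes. The count of higher genes depended on the libraries, as did the share of all tested genes. It was 7 without NF-YAcKO replicate 1 or 2, beside 11.2% and 10.1% of all tested genes. It was 8 without NF-YAcKO replicate 3 or NF-YAfl/fl replicate 1, beside 11.8% and 14.6%. Without NF-YAfl/fl replicate 3 it was 18, beside 26.0%. The count of lower genes was 3 without NF-YAcKO replicate 2, beside 11.5%.

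Downstream of the Bcl2 family, 4 of 11 genes of cytochrome c, the apoptosome and the caspases were higher and none lower, with a median log2 fold change of 0.38. Cycs, the somatic cytochrome c, rose from 152 ± 14.0 to 267 ± 21.7 CPM (SD, n = 3; log2 fold change 0.81, edgeR FDR 0.00218). Casp2, a caspase that responds to genotoxic stress, had a log2 fold change of 0.74 (FDR 0.00337), and Htra2, a mitochondrial protease that antagonizes inhibitor of apoptosis proteins, 0.43 (FDR 0.0468), a call lost in 11 of 14 alternatives. The Casp2 call was lost by limma with a pseudocount of 1 (FDR 0.0613) or 0.1 (0.0540). Casp9 (-0.08, FDR 0.691) and Apaf1 (-0.003, FDR 0.983), which build the apoptosome, did not pass.

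Of 5 inhibitor of apoptosis genes, Birc5, which encodes survivin, a protein of dividing cells that also serves the chromosomal passenger complex, was higher, with 73.5, 81.8 and 75.9 CPM in NF-YAcKO and 28.4, 36.7 and 20.0 CPM in NF-YAfl/fl. The lowest mutant library was above the highest control. Its log2 fold change was 1.44 (SE 0.21, edgeR FDR 0.00282), and it passed the threshold in all 14 alternatives. The other 4 did not pass, with Xiap at 0.15 (FDR 0.245). In the death receptor arm, 2 of 8 tested genes were higher, Casp8 (log2 fold change 0.94, FDR 0.0418), the initiator caspase that cuts Bid, and Ripk1 (0.57, FDR 0.0279), a kinase of the receptor complex. The ligand receptor Tnfrsf10b was lower (-0.47, FDR 0.0311), and Fasl was not tested. The Casp8 and Ripk1 calls were lost without any 1 NF-YAcKO library or NF-YAfl/fl replicate 1, with FDRs of 0.0921 to 0.137 and 0.0576 to 0.127. By limma with a pseudocount of 1 or 0.1 the FDR was 0.148 or 0.142 for Casp8 and 0.244 or 0.235 for Ripk1. With filterByExpr as the count filter the FDR of Casp8 was 0.0521.

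All 6 mitochondrial membrane partners had positive log2 fold changes, beside 49.0% of all tested genes, and 2 passed, beside 19.7% of all tested genes. They were the outer membrane channels Vdac2 (0.47, edgeR FDR 0.00632), which is known to hold Bak1 at the membrane, and Vdac3 (0.44, FDR 0.00961). Of 6 upstream regulators of BH3-only genes, Trp53, which encodes p53, was higher (0.57, FDR 0.0447) and Foxo1 lower (-0.93, FDR 0.0166), while the p53 inhibitor Mdm2 was at -0.01 (FDR 0.941). The Trp53 call was lost in 8 of 14 alternatives, including all leave-one-out fits but the one without NF-YAfl/fl replicate 3. Of 4 genes of Mcl1 ubiquitination, the ligase genes Fbxw7 (-0.68, FDR 0.00435) and Huwe1 (-0.34, FDR 0.0472) were lower and the deubiquitinase gene Usp9x did not pass (0.14, FDR 0.303). The Huwe1 call was lost in 8 of 14 alternatives, and Foxo1 was at an FDR of 0.0559 without NF-YAcKO replicate 1 and 0.0520 without NF-YAcKO replicate 2. Tnfrsf10b was lost without NF-YAcKO replicate 2 (0.0706), NF-YAcKO replicate 3 (0.0617) or NF-YAfl/fl replicate 1 (0.0673), and Vdac3 without NF-YAcKO replicate 1 (0.0609) or 2 (0.0712). By limma with a pseudocount of 1 the FDR was 0.0833 for Vdac2, 0.123 for Vdac3 and 0.0860 for Tnfrsf10b.

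Among 14 further family genes, 10 were tested, 4 higher and 2 lower. Bok, an effector relative of Bax and Bak1, was at 43.2, 46.5 and 45.7 CPM in NF-YAcKO and at 22.8, 30.1 and 13.6 CPM in NF-YAfl/fl, with a log2 fold change of 1.02 (edgeR FDR 0.0220). The genotypes did not overlap, but the highest and lowest controls lay far apart, and the FDR was 0.0650, 0.0861, 0.0744 and 0.0675 without NF-YAcKO replicate 1, 2 or 3 or NF-YAfl/fl replicate 1. By limma with a pseudocount of 1 or 0.1 the FDR of Bok was 0.0979 or 0.0924. The divergent member Bcl2l12 was slightly higher (0.48, FDR 0.0374), a call lost in 9 of 14 alternatives. Bnip3, a hypoxia-inducible mitophagy receptor, was lower, with 14.2, 13.6 and 13.9 CPM in NF-YAcKO and 30.5, 31.8 and 40.1 CPM in NF-YAfl/fl (log2 fold change -1.30, SE 0.13, FDR 0.000867). Bmf, a BH3-only gene tied to the cytoskeleton, was lower at a low level, 0.829 to 1.43 CPM against 2.37 to 3.13 CPM (-1.43, FDR 0.00938).

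The pro-survival genes Bcl2a1b and Bcl2a1d, which are expressed in leukocytes, were higher (edgeR FDR 0.000870 and 0.00652). Bcl2a1b had 182 counts in the 3 NF-YAcKO libraries together and 5 in the NF-YAfl/fl libraries, a ratio per library size of 28.2 (exact 95% interval 11.9 to 87.8, counting error only). Bcl2a1d had 44 and 3 counts, a ratio of 11.3 (3.64 to 57.1). They are near-identical copies among which reads may be divided by estimate, and a further copy, Bcl2a1a, was not tested. All 7 macrophage markers were higher in NF-YAcKO as well (137 to 271 CPM summed against 5.15 to 11.8 CPM). In NF-YAcKO replicates 1, 2 and 3 the macrophage sum was 255, 271 and 137 CPM. Bcl2a1b was at 1.59, 2.08 and 1.08 CPM there and Bcl2a1d at 0.510, 0.338 and 0.353 CPM. The part of macrophages in the values was not tested.

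**Figure D5:**
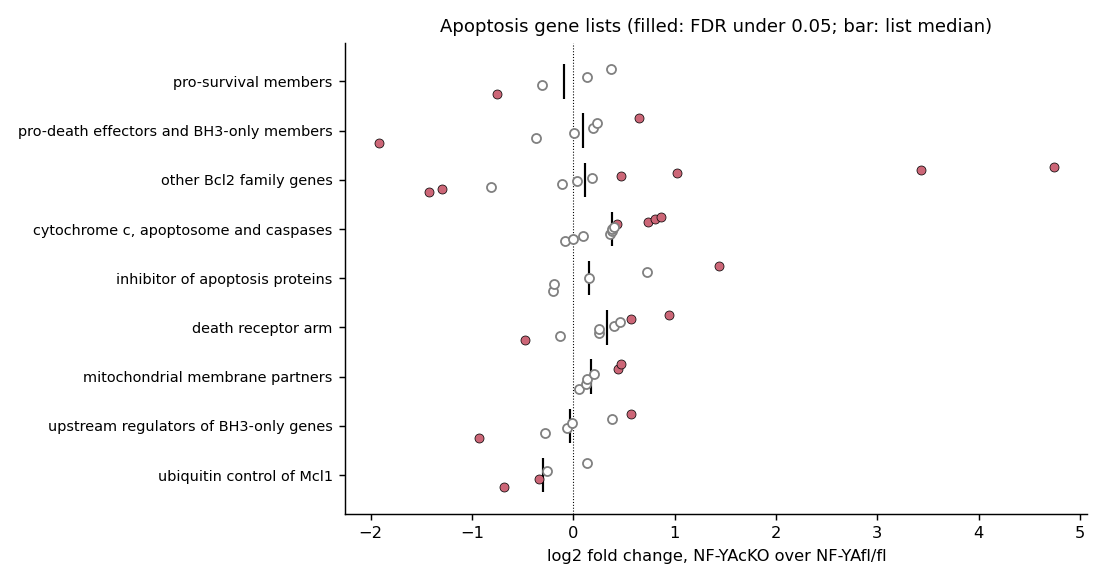
Log2 fold change (NF-YAcKO over NF-YAfl/fl) of every tested gene of the Bcl2 family and of 7 other apoptosis lists, filled where the edgeR FDR was under 0.05, with a bar at the median of each list. The medians of the lists lie between -0.30 and 0.38, and the genes farthest to the right, Bcl2a1b and Bcl2a1d, have 3 counts or fewer in each NF-YAfl/fl library.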

How the data were processed

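Stranded total RNA libraries from 500 ng were read as paired 75-nt ends. The authors used Bowtie2 for alignment to the mm10 transcriptome and RSEM for quantification. Per the file headers, the deposited values are expected counts, TPM and effective lengths per gene, and each transcript's share of its gene in percent. Here the counts were rounded to whole numbers and a gene was tested where 2 or more libraries exceeded 10 counts, which left 17348 of 35976. A single edgeR 4.0.16 model of the 6 libraries (TMM, quasi-likelihood, R 4.3.3) tested NF-YAcKO against NF-YAfl/fl. DESeq2 1.42.0, used by the authors in another version, and limma 3.58.1 on log2(TPM + 1) and log2(TPM + 0.1) served as alternatives, as did DESeq2 size factors, other filters, unrounded counts, a replicate block and leaving out each library. A fold change by limma is on the log2(value + pseudocount) scale. SEs were the fold change divided by the root of F, with 95% intervals. CPM are TMM-normalized. A count of 0 allows up to 3 counts. Transcript shares were compared by exact permutation. The edgeR step was tested on simulated data. The numbered replicates deviated together with correlations of 0.17, -0.07 and 0.05, so the numbers were not taken as pairs. No 2 libraries agreed within sampling noise.

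The members and gene lists were chosen with earlier results of these data known. All 10 members were described, and in the other lists genes with an FDR under 0.05 were named, beside a few that did not pass; 1 gene and 1 promoter stretch are not reported here. Marker lists covered myoblast, differentiated muscle, macrophage, fibro-adipogenic, endothelial, Schwann and pericyte genes. Gene coordinates came from RefSeq and exons from GENCODE, both on GRCm38 (mm10). Protein sequences were not used here.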

Additional observations from a re-analysis of the deposited data

How the results depend on the processing

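Of the 140 log2 fold changes of members under alternatives, 124 kept their direction and their side of the FDR threshold of 0.05, 8 passed it newly, 1 lost it (Bid without NF-YAcKO replicate 2) and 7 changed sign. The sign changes were all of Bbc3, whose fold change is near 0, with -0.011 by DESeq2 and by its size factors, -0.024 with filterByExpr, -0.018 with unrounded counts, and from -0.19 to 0.39 with 1 library left out. The cause was not tested.

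Under the stricter rule, 806 genes were called higher and 1331 lower. By limma these counts were 231 and 704 with a pseudocount of 1, and 361 and 1067 with 0.1. Leaving out 1 library gave 177 to 890 higher and 523 to 1684 lower genes. Of the members, 0 were called higher in any setting, beside 1.03% to 5.68% of all tested genes. DESeq2, the fit with no filter and limma with 0.1 each called 1 lower, beside 10.4%, 5.27% and 6.15% of all tested genes. With 1 library left out, 0 to 1 members were called lower by this rule, and 0 to 2 were higher and 2 to 4 lower at an FDR under 0.05. In those fits 10.1% to 26.0% of all tested genes were higher and 11.5% to 23.8% lower at that threshold, the most in each direction without NF-YAfl/fl replicate 3, where the members numbered 2 and 4. The higher apoptosis genes numbered 4 by limma with a pseudocount of 1 or 0.1, beside 8.92% and 9.36% of all tested genes. With 1 library left out they numbered 7 to 18 and the lower ones 3 to 8, beside the shares just given. Transcripts without overlap numbered 6 to 11, a smaller group overlapping less easily. The replicate block, fitted although the numbers do not pair the samples, gave 625 higher and 947 lower genes by the stricter rule. At an FDR under 0.05 it gave the same 1 higher and 2 lower members by count, beside 15.8% and 15.0% of all tested genes. The FDRs were 0.0115 for Bcl2l2, 0.0330 for Bid and 0.0278 for Pmaip1. The log2 ratio of the pro-survival over pro-death quotient was -0.17 and lay between -0.32 and -0.002 with 1 library left out. That of the pro-death sum was -0.05 in TPM and 0.01 in CPM per kb. Every member had at least 228 counts in each library.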
